A study of Mus musculus with 20 samples.

Results

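The 9 genes described here are Ttr, Kl, Clic6, Folr1, Otx2, Aqp1, Prlr, Sostdc1 and Cldn2, a set of genes used as markers of the choroid plexus. They were taken by symbol from the 29200 Ensembl gene IDs of a cerebellar count table, and all 9 were found there. Cerebellar mRNA was sequenced from 20 male mice of the C57BL6/N strain, 5 in each of 4 groups. WT/WT mice carried wild-type alleles, and 304Q/304Q mice were homozygous for a knock-in of an expanded, interrupted glutamine-coding repeat in Atxn3, the gene of spinocerebellar ataxia type 3. Mice of both genotypes were studied at 2 months and at 12 months. The sample labels name ataxin-2 for the wild-type alleles, whereas the series and the study describe Atxn3, and the latter was followed. Each library is labelled as 1 mouse and cerebellum as its tissue, and no label or method used here says whether the choroid plexus was removed at dissection.

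The choroid plexus is a fringe of secretory epithelium in the brain ventricles that makes the cerebrospinal fluid. A portion of it hangs in the fourth ventricle, directly under the cerebellum, so that it can come away with a dissected cerebellum or stay behind. Its epithelial cells make transthyretin in very large amounts and carry transporters, channels and tight junctions of their own, most of which cerebellar neurons and glia use little. In RNA of whole tissue, fewer cells of a type and less RNA per cell cannot be told apart.

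Between 11385380 and 27636687 reads per library were counted on genes. Values are given as the deposited counts or as CPM, counts scaled to 1000000 per library with the TMM method, and a count of 0 in a library allows a level of up to 0.109 to 0.264 CPM at 3 counts, which covers counting error only. The tissue label was met by the neuronal markers, since the summed level of 11 cerebellar neuron genes lay between 6677 and 9160 CPM in all mice. The 14 brainstem genes found in the table summed to at most 3.74 CPM in any mouse. The 5 midbrain genes summed to 53.2 to 74.8 CPM, of which Barhl2 alone ran from 53.2 to 74.6 CPM. The 5 forebrain genes summed to 8.76 to 14.2 CPM.

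The promoters of the members that could be shown are those of the RefSeq table of GRCm38.p6, which held 4 windows for Otx2, 3 for Prlr and 1 each for Kl, Aqp1 and Cldn2. The bases before the start site are printed for the 3 genes with a single window. These genes moved together with Ttr between mice, as did Prlr, whose 3 windows are not printed. Capitals mark the letters of the motifs that were searched on both strands. The core letters that OTX factors bind were searched as TAATCC. The TATA box, which places the start of transcription in some genes, was searched as TATAAA. The box bound by the factor NF-Y was searched as CCAAT. The core of forkhead factors, which many tissues use in varied forms, was searched as GTAAACA. The GC box, a letter group of many promoters without a TATA box, was searched as GGGCGG, and no pair of these motifs overlapped in the windows printed.
Kl, chr5:150952357-150952606, plus strand: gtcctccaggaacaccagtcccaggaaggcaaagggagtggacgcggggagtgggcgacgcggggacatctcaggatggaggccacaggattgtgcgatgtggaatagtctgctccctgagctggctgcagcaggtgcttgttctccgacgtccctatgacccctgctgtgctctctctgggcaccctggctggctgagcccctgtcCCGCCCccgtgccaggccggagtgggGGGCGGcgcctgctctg
Aqp1, chr6:55336049-55336298, plus strand: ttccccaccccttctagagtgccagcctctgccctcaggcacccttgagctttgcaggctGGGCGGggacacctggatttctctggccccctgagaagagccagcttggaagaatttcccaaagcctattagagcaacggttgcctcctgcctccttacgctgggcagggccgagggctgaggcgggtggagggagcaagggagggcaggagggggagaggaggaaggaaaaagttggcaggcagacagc
Cldn2, chrX:139800558-139800807, plus strand: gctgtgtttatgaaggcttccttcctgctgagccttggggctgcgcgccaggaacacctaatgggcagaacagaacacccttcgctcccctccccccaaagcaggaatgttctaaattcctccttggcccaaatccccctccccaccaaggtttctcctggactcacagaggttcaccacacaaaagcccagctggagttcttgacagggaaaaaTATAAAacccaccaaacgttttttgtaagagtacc
In these 250 bases, Kl held 2 GC boxes, Aqp1 held 1 GC box and Cldn2 held a TATA box that began 35 bases before the start. A GC box was found in 32.7% and a TATA box in 12.4% of all 32851 windows of the same length. None of the 5 motifs was found in all 3 promoters. The OTX core was in none of the 3 windows and in 6.25% of all windows.

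Ttr encodes transthyretin, the carrier of thyroxine that the choroid plexus secretes into the cerebrospinal fluid. In the WT/WT mice of 2 months, replicates 1 to 5 held 13, 47, 86, 58 and 38 counts of Ttr. In the 304Q/304Q mice of 2 months they held 523, 221, 22301, 242 and 36 counts. Replicate 3 stood far above the other mice of its group, and of these only replicate 5 lay within the range of the WT/WT mice of that age. In the WT/WT mice of 12 months, replicates 1 to 5 held 4778, 28806, 103, 90 and 12224 counts. The 304Q/304Q mice of 12 months held 19746, 88, 15099, 70 and 47 counts. High and low mice thus stood side by side in 3 of the 4 groups, and in CPM no 2 of the groups compared separated fully. The WT/WT mice reached 6.94 CPM at 2 months and began at 6.35 CPM at 12 months, although their counts did not overlap.

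The mice fell into 2 sets with a wide gap. The 6 mice with the most Ttr ranged from 374 to 2009 CPM, and the other 14 ranged from 1.05 to 18.9 CPM, so that the lowest of the 6 lay 19.8 times above the highest of the 14. The 6 mice were WT/WT replicates 1, 2 and 5 and 304Q/304Q replicates 1 and 3 at 12 months, and 304Q/304Q replicate 3 at 2 months. None was a WT/WT mouse of 2 months. Over all 20 mice the level of Ttr spanned a factor of 1922. Its biological coefficient of variation between mice of a group was 1.45, higher than that of 99.98% of the genes tested, whose median was 0.100.

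Kl encodes Klotho, the co-receptor of the hormone FGF23, which is made in the kidney and in the choroid plexus. Its counts in replicates 1 to 5 were 14, 13, 22, 19 and 14 in the WT/WT mice of 2 months and 37, 20, 455, 31 and 32 in the 304Q/304Q mice of 2 months. At 12 months they were 125, 589, 10, 26 and 247 in WT/WT mice and 414, 29, 336, 25 and 20 in 304Q/304Q mice. The 6 mice with the most Kl were the 6 with the most Ttr, at 9.80 to 41.1 CPM against 0.752 to 2.26 CPM in the others. The groups overlapped in every comparison.

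Sostdc1 encodes a secreted antagonist of BMP and Wnt signals. It held 1, 3, 0, 7 and 2 counts in the WT/WT mice of 2 months and 13, 3, 136, 7 and 2 counts in the 304Q/304Q mice of 2 months. At 12 months it held 26, 183, 0, 0 and 44 counts in WT/WT mice and 120, 3, 98, 8 and 2 counts in 304Q/304Q mice. Again the mice of the upper set were those of Ttr, from 2.04 to 12.8 CPM, and no other mouse exceeded 0.614 CPM. Folr1, the folate receptor through which the choroid plexus passes folate to the cerebrospinal fluid, was at 0 in 9 libraries. Its counts were 0, 1, 0, 0 and 0 in the WT/WT mice of 2 months and 2, 1, 127, 1 and 8 in the 304Q/304Q mice of 2 months. They were 30, 129, 0, 0 and 53 in the WT/WT mice and 79, 0, 70, 0 and 0 in the 304Q/304Q mice of 12 months. The lowest of the 6 mice with the most Ttr had 30 counts of Folr1, and the highest of the others had 8. The gene lies over Anapc15 on the opposite strand, and whether the counting used the strand is not given in the sources used here.

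Aqp1, the water channel of the apical membrane of these cells, held 19 to 96 counts in the 6 mice with the most Ttr and 0 to 17 counts in the others. Cldn2, a claudin that makes tight junctions permeable to cations, held 38 to 139 counts in the 6 and 3 to 36 in the others. Prlr, the prolactin receptor, held 18 to 108 counts in the 6 and 1 to 16 in the others. On the CPM scale the 2 sets did not overlap for any of these 3 genes, with upper sets of 1.49 to 6.69 CPM for Aqp1, 2.98 to 9.96 CPM for Cldn2 and 1.41 to 7.91 CPM for Prlr. The margin was narrowest for Aqp1 and Prlr, since 304Q/304Q replicate 5 of 12 months reached 1.20 CPM of Aqp1 and 1.13 CPM of Prlr while its Ttr stood at 3.32 CPM.

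**Figure D1:**
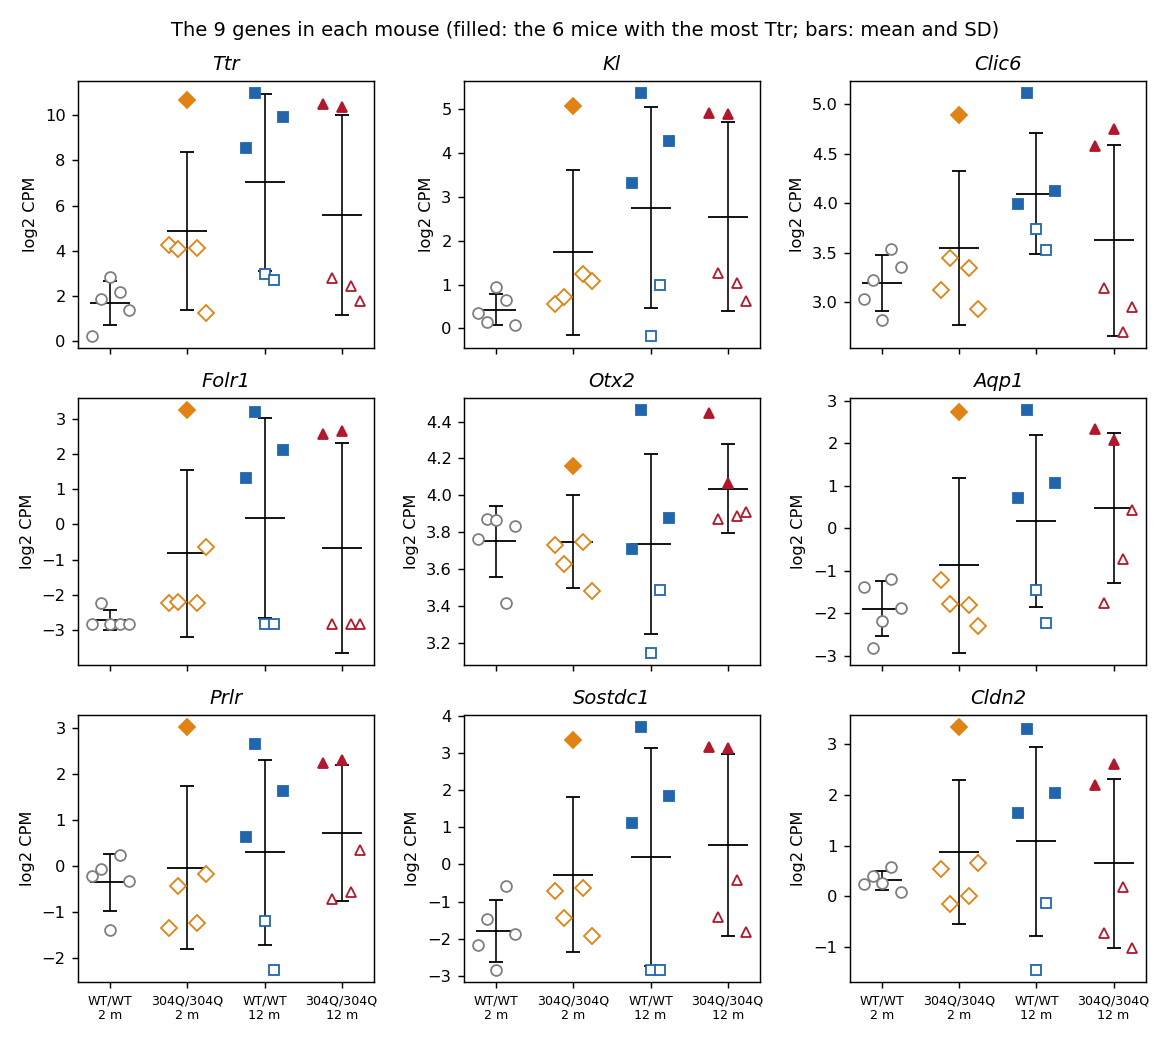
Level of each of the 9 genes (vertical axis, log2 CPM with a prior count of 2) in each mouse by group (horizontal axis); filled symbols are the 6 mice with the most Ttr, horizontal marks and bars are the mean and SD of 5 mice. The filled symbols lie above all open ones in every panel except that of Otx2, where 2 of the 6 lie among the rest.

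Clic6, a chloride intracellular channel protein, followed the same mice from a higher base. It held 100, 125, 86, 154 and 154 counts in the WT/WT mice of 2 months and 237, 143, 402, 141 and 121 in the 304Q/304Q mice of 2 months. At 12 months it held 201, 493, 176, 161 and 221 counts in WT/WT and 328, 112, 304, 83 and 108 counts in 304Q/304Q mice. Its upper set ran from 15.8 to 34.4 CPM and the other mice from 6.37 to 13.2 CPM, so that the mice with little Ttr still had a sizeable level of Clic6. Clic6 lies over 2410124H12Rik on the same strand, and how reads of their overlap were assigned is not given in the sources used here.

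Otx2, the homeobox factor that the choroid plexus needs to form and to maintain itself, was the exception. It held 167, 197, 179, 141 and 215 counts in the WT/WT mice of 2 months and 363, 162, 242, 186 and 178 in the 304Q/304Q mice of 2 months. At 12 months it held 165, 314, 116, 157 and 186 counts in WT/WT and 299, 186, 189, 191 and 211 counts in 304Q/304Q mice. Of the 6 mice with the most Ttr, 4 were among the 6 with the most Otx2. The level ran from 8.73 to 14.9 CPM in the mice with little Ttr and from 12.9 to 21.9 CPM in the 6, and the ranges overlapped. Otx2os1 on the opposite strand and Gm49154 on the same strand lie over Otx2.

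Counted over all genes, the identity of these mice was shared by few. Of all 29200 genes, with no limit on counts, 27 (0.0925%) had the same 6 mice above the other 14. Besides Ttr, which set the order, these included 7 of the 8 other members, and not Otx2. The members were chosen with earlier results of these data known. The 29200 genes also include many that averaged under 10 counts, so nothing is read from this share either. At 10 counts or more on average, 22 of 15194 genes (0.145%) had the pattern, the same 7 members among them. Folr1, Aqp1, Prlr and Sostdc1 met that limit only through the 6 mice, with means of 0.929 to 8.0 counts in the other 14, as did Kcne2, Tmem72, F5 and Mfrp of the list that follows, so nothing is read from the counts above the limit. Of the remaining genes, 10 belonged to a list of 36 other genes of the choroid plexus epithelium, of which 30 passed the limit. They were Kcne2, Slc4a5, Tmem72, 1500015O10Rik, Enpp2, Car12, Trpv4, Htr2c, F5 and Mfrp. Tmem72 ran from 2.43 to 13.8 CPM in the 6 mice and reached at most 0.453 CPM elsewhere, and Kcne2, a potassium channel subunit, ran from 3.13 to 11.2 CPM and reached at most 0.496 CPM elsewhere. The rest of the 30 did not have the pattern. Slc29a4 ran from 60.0 to 85.6 CPM in the 6 mice and from 61.0 to 79.3 CPM elsewhere. For Col9a3 the ranges were 36.2 to 56.7 and 35.1 to 61.0 CPM, and for Slc13a4 18.1 to 41.7 and 18.9 to 30.5 CPM. The 4 genes in no list, named after their values were seen, were Slc4a2, Baiap2l1, Drc7 and Sema3b. With a mean of at least 50 counts, 10 of 12153 genes (0.0823%) had the pattern.

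Lists of other tissues did not hold a gene with this order of mice. It was met by 0 of 17 carriers, ligands and partners of the members, 0 of 16 genes of the meninges, 0 of 7 of the ependyma, 0 of 5 of blood, 0 of 3 of the forebrain, 0 of 1 of the midbrain and 0 of 11 of cerebellar neurons with a mean of at least 10 counts. Of all genes at that limit 0.145% met it, a share at which lists this short would mostly hold 0, so nothing is read from these counts. The summed level of the 16 meningeal genes ran from 216 to 269 CPM in the WT/WT mice of 2 months, 209 to 272 in the 304Q/304Q mice of 2 months, 212 to 320 in the WT/WT mice of 12 months and 234 to 288 in the 304Q/304Q mice of 12 months. For the 10 ependymal genes the same ranges were 24.8 to 28.6, 24.2 to 35.0, 24.4 to 37.8 and 10.9 to 27.9 CPM. The 9 members summed to 25.7 to 31.5, 25.6 to 1758, 31.2 to 2150 and 30.1 to 1534 CPM in these groups, and the 36 other genes of the choroid plexus epithelium to 411 to 465, 418 to 1293, 438 to 1380 and 396 to 1056 CPM. In the 6 mice with the most Ttr the ependymal genes summed to 27.2 to 37.8 CPM (median 31.7), and in the other 14 to 10.95 to 30.1 CPM (median 25.6). The meningeal genes summed to 212 to 320 CPM (median 276) in the 6 and 209 to 288 CPM (median 243) in the 14. The medians of the blood genes (117 and 129 CPM) and of the cerebellar neuron genes (7801 and 8198 CPM) were lower in the 6. Among the 6 were 3 WT/WT and 2 304Q/304Q mice of 12 months but only 1 304Q/304Q mouse of 2 months. The neuron genes had medians of 8972 CPM in WT/WT and 8019 CPM in 304Q/304Q mice of 2 months. At 12 months these were 7884 and 7202 CPM. Age and group thus cannot be told apart from the level of Ttr in the medians of the 6 and the 14. The cause of these shifts was not tested. How much choroid plexus was in each sample was not tested by any other means.

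The amount of each member relative to Ttr was then taken in the 6 mice, after subtraction of the median CPM of the WT/WT mice of 2 months. For each 1000 CPM of Ttr there were 23.2, 19.9 and 19.0 CPM of Kl in WT/WT replicates 1, 2 and 5 of 12 months. The value was 20.2 and 21.4 CPM in 304Q/304Q replicates 1 and 3 of 12 months and 19.7 CPM in 304Q/304Q replicate 3 of 2 months. The ratio of Kl to Ttr varied by 1.22 times while the level of Ttr itself varied by 5.37 times. The ratios of the other members varied more, by 1.57 times for Folr1, 1.85 for Sostdc1, 2.03 for Aqp1, 2.07 for Clic6, 2.32 for Cldn2 and 2.399 for Prlr. They ran from 3.46 to 6.39 CPM per 1000 CPM of Ttr for Sostdc1 and from 4.001 to 6.28 for Folr1. For Otx2 the ratio ran from -3.19 to 5.27 and changed sign between mice.

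**Figure D2:**
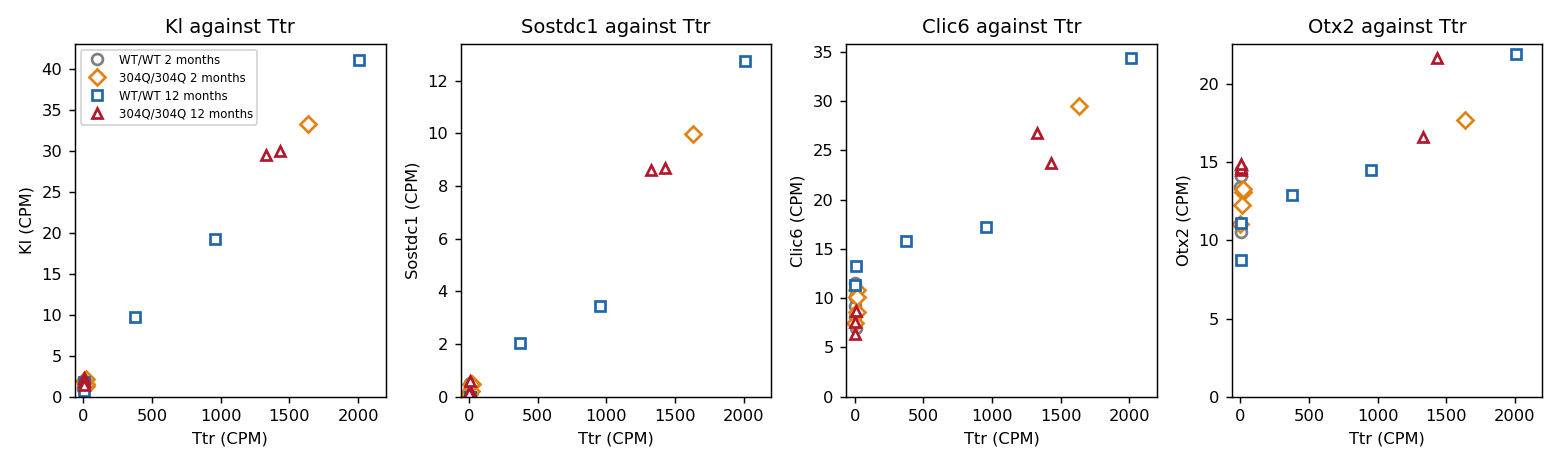
Level of Kl, Sostdc1, Clic6 and Otx2 (vertical axes, CPM) against that of Ttr (horizontal axes, CPM) in the 20 mice, with 1 symbol per mouse and linear axes. Kl rises along a line up to 41.1 CPM from mice with almost none, while Clic6 and Otx2 start from a base of 6.37 CPM and 8.73 CPM.

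Per length of exon, the members differed widely in abundance. In WT/WT replicate 2 of 12 months, the mouse with the most Ttr, Ttr stood at 1694 CPM per kilobase. Clic6 followed at 8.78, Sostdc1 at 7.17, Otx2 at 5.19, Kl at 4.40, Folr1 at 3.92, Cldn2 at 2.92, Aqp1 at 2.55 and Prlr at 0.400 CPM per kilobase. In the WT/WT mice of 2 months the order was another one, since the medians of Otx2 (3.35), Ttr (2.92) and Clic6 (2.35) were the highest and all others lay at or under 0.316 CPM per kilobase. Lengths are those of all annotated exons together, so that Prlr, with 15339 bases, is counted over more sequence than a single transcript has.

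Because the mice formed 2 sets, correlations with Ttr were computed within each set on the log2 CPM scale. In the 6 mice with the most Ttr, Pearson's r was 0.995 for Kl, 0.961 for Folr1, 0.956 for Prlr, 0.956 for Sostdc1, 0.920 for Aqp1, 0.894 for Clic6, 0.856 for Otx2 and 0.838 for Cldn2. Spearman's rho was 1 for Kl, Aqp1 and Sostdc1, 0.943 for Clic6 and Otx2, and 0.886 for Folr1, Prlr and Cldn2. The exact 2-sided permutation p of r lay between 0.00139, the smallest that 720 arrangements allow, and 0.0111, and the p of rho between 0.00278 and 0.0333. After Benjamini-Hochberg adjustment over the 12157 genes correlated with Ttr in these mice the values of r had exact permutation p of 0.625 to 0.634, and those of rho of 0.881 to 0.937. Of all these genes, 3.51% had an r at or above the lowest of the members. They averaged at least 50 counts, except for Folr1, Aqp1, Prlr, Sostdc1 and Cldn2, which were added from below that limit. Kl met the limit only through the 6 mice, so nothing is read from this share. Without the 2 mice farthest from the median of Ttr, r was 0.985 for Kl, 0.9996 for Aqp1, 0.967 for Sostdc1, 0.942 for Clic6, 0.936 for Prlr, 0.921 for Folr1, 0.762 for Cldn2 and 0.699 for Otx2.

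In the other 14 mice the correlations with Ttr had no common sign. The median r was -0.02, with values from -0.54 for Prlr to 0.30 for Sostdc1. The permutation p of r was 0.0442 for Prlr and lay between 0.292 and 0.962 for the other 7, and the lowest adjusted p was 0.622. Spearman's rho of Prlr was -0.70, with a permutation p of 0.00732 and an adjusted p of 0.671. Without the 2 mice farthest from the median of Ttr, r was -0.49 for Prlr and lay between -0.26 and 0.32 for the rest. Most members had under 40 counts in these mice, so that counting error makes up much of their spread. 7.95% of all genes had a permutation p under 0.05 in this set and 7.59% in the set of 6.

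The genes most like Ttr over the 20 mice, ranked by r after subtraction of the 4 group means among 12152 genes, were led by Kl (r = 0.956). Clic6 was at rank 5 with r = 0.899, and Otx2 stood at rank 20 with r = 0.780. This r serves to rank genes and was not tested, since it spans both sets of mice. The 10 nearest genes outside the members were Enpp2, Car12, 1500015O10Rik, Cab39l, Stk39, Htr2c, Slc4a5, Ezr, Col8a2 and Igfbp2, with r from 0.950 down to 0.837. Of the 10, 7 were on the list of other choroid plexus epithelium genes. Igfbp2 was on the meningeal list, and Stk39 and Ezr were on none. Car12, 1500015O10Rik, Htr2c, Slc4a5 and Col8a2 of the 7, and Kl, reached the limit of 50 counts only through the 6 mice. The ranking left out genes under that limit, so nothing is read from the 7 or from the rank of Kl. Enpp2, which encodes autotaxin, also has a source in oligodendrocytes and kept 96.0 to 153 CPM in the mice with little Ttr, and it ran from 240 to 789 CPM in the 6. Above the median of the WT/WT mice of 2 months there were 272 to 377 CPM of Enpp2 for each 1000 CPM of Ttr, a range of 1.39 times.

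**Figure D3:**
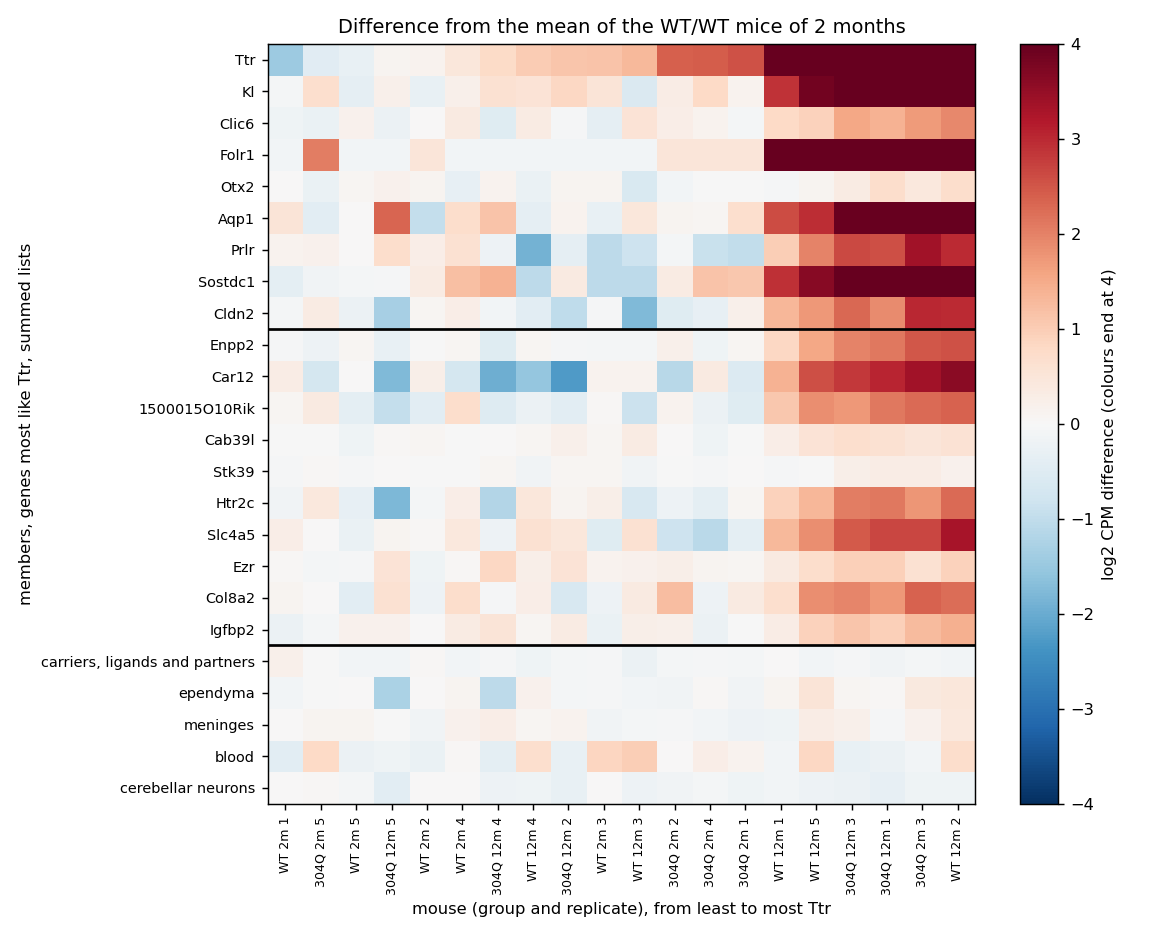
Difference in log2 CPM from the average WT/WT mouse at 2 months (colour, ending at 4 on either side) for the 9 members, the 10 genes most like Ttr and the summed levels of 5 lists (rows) in the 20 mice ordered by their level of Ttr (columns, group and replicate). The 6 columns at the right, from 374 to 2009 CPM of Ttr, are mostly red in the upper blocks, while the summed lists of the lowest block show no such step. In WT/WT mice of 12 months, Otx2 (-0.043) and Stk39 (-0.054) lie below 0 in replicate 1, as does Stk39 (-0.014) in replicate 5. Ezr is also raised in mice with little Ttr, as in 304Q/304Q replicate 4 of 12 months (0.82).

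The groups were compared with edgeR's quasi-likelihood test in 1 model of the 4 groups. Of the members, Ttr, Kl, Clic6 and Otx2 had a mean of at least 50 counts and were tested among 12153 genes, while Folr1, Aqp1, Prlr, Sostdc1 and Cldn2 had means of 19.7 to 34.3 counts and were not. Calls needed an adjusted p no higher than 0.05 together with a log2 fold change of 0.5 or more in either direction. Counts of genes with an unadjusted p under 0.05 are given below without the share over all genes, so nothing is read from them. The comparisons share groups, and p-values measure the spread between the 5 labelled mice of each group.

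Ttr and Kl had higher mean levels at 12 than at 2 months in WT/WT mice, while single mice of the 2 ages overlapped in CPM. The mean level of Ttr was 3.66 ± 2.21 CPM (SD, n = 5) at 2 months and 670 ± 843 CPM at 12 months, and that of Kl was 1.24 ± 0.36 and 14.6 ± 16.6 CPM. The log2 fold change was 7.53 ± 2.10 (SE) for Ttr, with an adjusted p of 0.0225 by edgeR's quasi-likelihood test, and 3.56 ± 1.15 for Kl, with an adjusted p of 0.0451. Kl averaged 22.3 counts in the 14 mice with little Ttr and met the limit of 50 counts only through the 6 with much, while Ttr averaged 118.7 counts in the 14. These folds compare arithmetic means and rest on the 3 high mice of 12 months, while the remaining 2 had 7.75 and 6.35 CPM of Ttr, next to a highest value of 6.94 CPM at 2 months. Clic6 had a log2 fold change of 1.0035 ± 0.40 and did not pass (adjusted p 0.102), and the log2 fold change of Otx2 was 0.05 ± 0.18 (adjusted p 0.902). In this comparison 2 of the 4 members tested were called, beside 314 of 12153 genes in all (2.58%). Since Kl was tested only because of the mice in which it is high, nothing is read from that count or from the adjusted p of Kl.

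The call depended on single mice. Without WT/WT replicate 2 of 12 months neither gene passed, with a log2 fold change of Ttr of 6.53 (adjusted p 0.0515) and of Kl of 2.67 (adjusted p 0.149) by edgeR. Without replicate 5 only Ttr passed (7.37, adjusted p 0.0430), and without replicate 1 both did. With robust empirical Bayes in edgeR neither passed (adjusted p 0.0677 for Ttr and 0.107 for Kl). With only the groups compared in the edgeR fit both passed, and so did Clic6 (log2 fold change 1.003, adjusted p 0.0367). Leaving out any of WT/WT replicates 1, 2 and 3 of 2 months also ended both calls. With log2 CPM of Ttr as a covariate, the log2 fold change of Kl was -0.27 ± 0.40, and 161 genes were called. Ttr was not tested in that fit. Kl follows Ttr between mice, so its lower value there follows from the choice of covariate.

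The exact permutation test of 5 against 5 mice on mean log2 CPM, which weighs each mouse equally, gave a difference of 5.32 for Ttr (p = 0.0159), of 0.90 for Clic6 (p = 0.0159) and of 2.33 for Kl (p = 0.0873) in WT/WT mice. The smallest p of this test is 0.00794. Adjusted over the 15194 genes that averaged 10 counts or more, the permutation p was 0.170 for Ttr and Clic6 and 0.315 for Kl, and at or above 0.326 for the other 6 members. None of the 9 members separated the WT/WT mice of the 2 ages, as 5.88% of these genes did. The same count was 0 of 9 between the ages in 304Q/304Q mice (7.0% of genes) and between the genotypes at 2 months (1.0%) and at 12 months (7.65%). With the lower limit of 10 counts in edgeR, Folr1 was called as well (adjusted p 0.0495), in a comparison with 2.56% of genes called. Folr1 met that limit only through the mice with much Ttr.

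**Figure D4:**
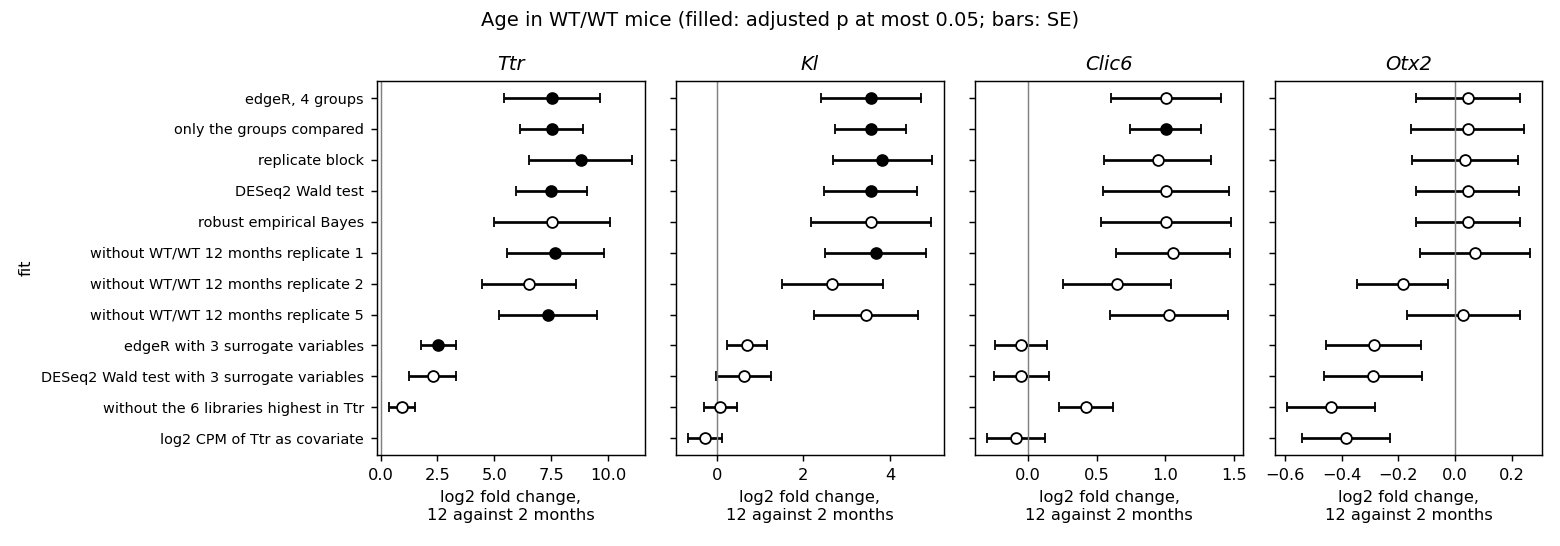
Log2 fold change of Ttr, Kl, Clic6 and Otx2 between 12 and 2 months in WT/WT mice (horizontal axes, bars are SE) under 12 fits (vertical axis), filled where the adjusted p was at most 0.05. Ttr lies at 7.53 in the 4-group model and at 2.54 and 2.29 with surrogate variables, and has no point where it served as the covariate. The fit without the 6 libraries left out mice chosen by their Ttr and kept 2 WT/WT mice of 12 months, so the lower value of Ttr there follows from that choice.

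In 304Q/304Q mice, 0 of 4 members were called between 12 and 2 months, beside 2.28% of all genes. Ttr stood at 338 ± 724 CPM (SD, n = 5) at 2 months and 555 ± 753 CPM at 12 months, with a log2 fold change of 0.72 ± 1.45 (SE, adjusted p 0.856 by edgeR). For Kl the change was 0.72 ± 0.92 (adjusted p 0.751). With all mice, an unadjusted p under 0.05 was reached by none of the 4, and DESeq2 called 0 as well. Without 304Q/304Q replicate 3 of 2 months the change was 5.32 ± 1.63 for Ttr (adjusted p 0.0550) and 2.90 ± 0.95 for Kl (adjusted p 0.0752) by edgeR. The interaction of genotype and age was -6.81 ± 2.4999 for Ttr (adjusted p 0.179) and -2.83 ± 1.49 for Kl (adjusted p 0.351) by edgeR, so that a difference between the genotypes in the change with age was not shown. Without 304Q/304Q replicate 3 of 2 months the interaction was -2.21 ± 2.19 for Ttr (adjusted p 0.683) and -0.66 ± 1.36 for Kl (adjusted p 0.860). In the interaction 0.938% of all genes were called and 0 of the 4 members by edgeR or DESeq2, and Ttr alone had an unadjusted p under 0.05.

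Between the genotypes, no member was called by edgeR at either age. At 2 months, where 0.00823% of all genes were called, the log2 fold change of Ttr in 304Q/304Q against WT/WT mice was 6.53 ± 2.05 (SE) with an adjusted p of 0.625, and that of Kl was 2.66 ± 1.17 with an adjusted p of 0.860. The unadjusted p was under 0.05 for these 2 of the 4. The fold of Ttr was carried by 304Q/304Q replicate 3, and without it was 1.94 ± 1.83. Apart from that mouse, replicates 1, 2 and 4 held 16.7 to 18.9 CPM of Ttr and replicate 5 held 2.23 CPM, while the WT/WT mice of that age ranged from 1.05 to 6.94 CPM. DESeq2 without surrogate variables called Ttr at this age (adjusted p 0.0196), as did edgeR with 3 surrogate variables (log2 fold change 3.36, adjusted p 0.0390), and DESeq2 with 3 surrogate variables did not (2.65, adjusted p 0.208). The exact permutation test gave p = 0.0397 for Ttr and for Kl, and 0.0238 for Folr1, each 0.882 after adjustment over 15194 genes.

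At 12 months, where 3.09% of all genes were called, Ttr stood at 670 ± 843 CPM in WT/WT and 555 ± 753 CPM in 304Q/304Q mice (SD, n = 5). The log2 fold change was -0.27 ± 1.44 for Ttr (adjusted p 0.925) and -0.17 ± 0.89 for Kl (adjusted p 0.924) by edgeR. None of the 4 members tested had an unadjusted p under 0.05, and DESeq2 called 0. The SE of Ttr exceeds 1 on the log2 scale, so that a change of that size was not detectable with 5 mice a group. The lowest exact permutation p of any member was 0.238, that of Otx2. With 3 surrogate variables, Otx2 was called higher in 304Q/304Q mice, at 0.59 ± 0.17 (adjusted p 0.0230) by edgeR and 0.60 ± 0.18 (adjusted p 0.0122) by DESeq2, against 0.25 ± 0.18 (adjusted p 0.398) in the 4-group model. Without the 6 libraries highest in Ttr, Otx2 stood at 0.56 ± 0.17 (adjusted p 0.0575).

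Surrogate variables are directions of shared variation between libraries that the groups do not explain, and the study's own model used them. Of the 3 estimated here, the third set the same mice apart. The 6 mice with the most Ttr took values from -0.49 to -0.13, and the other 14 from -0.03 to 0.53. Since Ttr and its companions are among the genes from which the variable was estimated, this is a description. With the 3 variables in the model the log2 fold change of Ttr with age in WT/WT mice was 2.54 ± 0.77 (adjusted p 0.0404) by edgeR and 2.29 ± 1.02 (adjusted p 0.157) by DESeq2. The numbers of all genes called in that comparison were 185 and 204.

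Genes that share pathways with the members made up a further list. The 21 carriers, ligands and partners comprised thyroid hormone transporters, FGF receptors, folate carriers, the prolactin signalling chain and other aquaporins and claudins, among others. Of the 17 that were tested, 0 were called by edgeR in any of the 5 comparisons. Of all genes, 0.00823% to 3.09% were called there, shares at which a list this short would often hold 0, so nothing is read from this 0. An unadjusted p under 0.05 was reached by 6 of the 17 with age in either genotype, by 4 in the interaction, and by 1 and 3 between genotypes at 2 and 12 months. DESeq2 called 0 of the 17 between genotypes at 2 and at 12 months, with age in 304Q/304Q mice and in the interaction. In the same order it called 8, 403, 299 and 173 of 12151 genes. The median log2 fold change of the list with age in WT/WT mice was 0.07. Their summed level ran from 926 to 1267 CPM over all mice. Aqp4, the astrocytic water channel, ran from 297 to 571 CPM with no step at the 6 mice.

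Of the 36 other choroid plexus epithelium genes, 19 were tested. In WT/WT mice, 2 were called higher at 12 months, Slc5a5 by 1.06 ± 0.16 (SE, adjusted p 0.000132 by edgeR) and Spint2 by 0.62 ± 0.14 (adjusted p 0.00520). Of all genes, 2.58% were called in that comparison. Of the 19, 8 met the limit of 50 counts only through the 6 mice with much Ttr. In the interaction 0 of the 19 were called, beside 0.938% of all genes. An unadjusted p under 0.05 was reached in edgeR by 11 of the 19 with age in WT/WT mice, by 2 with age in 304Q/304Q mice and by 4 in the interaction. Among the 11, Lbp, Abca4, Col8a2, Slc4a5 and Car12 met the limit only through the 6 mice, so nothing is read from that count. In 304Q/304Q mice Slc5a5, the sodium-iodide symporter, was called higher with age by 0.94 ± 0.16 (adjusted p 0.000277 by edgeR), beside 2.28% of all genes called. Slc5a5 did not follow the mice of Ttr, with 4.39 to 9.45 CPM in the 6 and 2.83 to 9.39 CPM in the others. Of the 19, 0 were called between genotypes by edgeR or DESeq2, and an unadjusted p under 0.05 was reached in edgeR by 1 at 2 months and by 2 at 12 months. Between genotypes edgeR called 0.00823% of all genes at 2 months and 3.09% at 12 months, so nothing is read from that 0. In the lists of other tissues, Foxj1, a regulator of motile cilia, was called lower in 304Q/304Q than WT/WT mice at 12 months, with a log2 fold change of -0.68 ± 0.20 (adjusted p 0.0263 by edgeR), and so was Pcp2 of Purkinje cells, with -0.59 ± 0.09 (adjusted p 4.20e-05). The meningeal gene Col3a1 was called lower with age in WT/WT mice, with -0.76 ± 0.20 (adjusted p 0.0159). Of the blood genes, Hbb-bs, Hbb-bt, Hba-a1 and Hba-a2 were called lower in 304Q/304Q mice at 12 months, with log2 fold changes from -0.90 to -1.13, and Hba-a1 and Hba-a2 were called higher with age in WT/WT mice and lower in the interaction.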

How the data were processed

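RNA of 20 cerebella was sequenced from polyA-enriched, stranded libraries. Reads were aligned by the authors with STAR (2.4.5b per the labels) against GRCm38 and assigned to genes with Rsubread. The deposited values are raw read counts of 29200 Ensembl genes. The use of strand in counting is not given in the sources used here. Symbols came from GENCODE M21 for 29150 IDs.

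From the deposited counts, edgeR 4.0.16 in R 4.3.3 fitted 1 term for each of 4 groups after TMM scaling, over the 12153 genes that averaged 50 counts or more, with Benjamini-Hochberg adjustment. Log2 CPM used a prior count of 2. Alternatives were DESeq2 1.42.0, 3 surrogate variables (sva 3.50.0), other filters and scalings, a replicate block and each library left out. Leaving out the 6 libraries highest in Ttr, Ttr as a covariate, and correlations within 2 sets of mice were added after the data were seen. The fits were tested on simulated data. Totals of 11385380 to 27636687 counts set the precision. The members and lists were chosen with earlier results of these data known. Named were all 9 members, called genes of each other list and the 10 genes most like Ttr. Slc4a2, Baiap2l1, Drc7, Sema3b, Tmem72, Kcne2, Slc29a4, Col9a3, Slc13a4, Lbp, Abca4 and Aqp4 were named after their values were seen. The calls of DESeq2 with age in WT/WT mice among the carriers, ligands and partners are not reported here.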

Additional observations from a re-analysis of the deposited data

Results flagged for a closer look

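In 36 groups of 5 values, 13 members' values lay far from the other 4 mice of their group by Dixon's test, where chance flags about 1 group in 20 and the members share mice. In 304Q/304Q mice of 2 months, replicate 3 stood far above the rest in 8 genes: Ttr (1634 CPM), Kl (33.3 CPM), Clic6 (29.4 CPM), Folr1 (9.30 CPM), Aqp1 (6.45 CPM), Prlr (7.91 CPM), Sostdc1 (9.96 CPM) and Cldn2 (9.96 CPM). In WT/WT mice of 12 months, replicate 2 stood above the rest in Clic6 (34.4 CPM), Aqp1 (6.69 CPM) and Sostdc1 (12.8 CPM). In WT/WT mice of 2 months, Otx2 was low in replicate 4 (10.5 CPM), and 1 count of Folr1 in replicate 2 (0.0737 CPM) stood beside 4 libraries at 0.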

How the results depend on the processing

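Members called between 12 and 2 months in WT/WT mice numbered 2, beside 2.58% of all genes tested. They numbered 0 with DESeq2 and 3 surrogate variables (1.68% of all genes), 1 with edgeR and 3 surrogate variables (1.52%) and 0 with robust empirical Bayes (2.42%). Without a filter on low counts they numbered 5 (Ttr, Kl, Folr1, Aqp1 and Sostdc1, beside 1.41%). With only the groups compared in the edgeR fit, Clic6 was called beside Ttr and Kl (1.88%). With at least 50 counts in every library, where Ttr and Kl were not tested, they numbered 0 (2.08%). With Ttr as covariate they numbered 0 (1.32%). Ttr was not tested there and Kl follows it, so nothing is read from that 0. With 1 library left out they numbered 0 to 2. They numbered 0 without the 6 libraries highest in Ttr (3.83%), which were chosen by Ttr itself, so nothing is read from that 0. With the replicate block the count stayed at 2 (2.54%). Same-numbered libraries were not paired (correlations of deviations from -0.32 to 0.55, 4 of 20 closest to their own number). At 2 months between genotypes the count of 0 became 1 (Ttr) with DESeq2 and with edgeR and surrogate variables. At 12 months it became 1 (Otx2) with surrogate variables in either tool. It was 0 under all other alternatives run of these 2 comparisons and of the remaining 2.

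Directions of single members turned as follows, on the log2 scale, and the cause was not tested. With surrogate variables in DESeq2 and edgeR, Ttr between genotypes at 12 months was 1.03 and 1.40, Kl there 1.32 and 1.05, Clic6 there 0.24 and 0.23, Otx2 at 2 months -0.0459 and -0.0499, Clic6 with age in WT/WT mice -0.048 and -0.0501, and Otx2 -0.29 and -0.29. The interaction of Clic6 was then 0.17 and 0.16. The interaction of Kl was 0.38 with DESeq2 and surrogate variables. Without the 6 libraries, Kl at 12 months was 0.50, Otx2 at 2 months -0.11, Otx2 with age in WT/WT -0.44, Ttr and Clic6 with age in 304Q/304Q -1.42 and -0.28, and the interaction of Kl 0.0126. With Ttr as covariate, which Kl and Clic6 follow between mice, Kl was -0.25 at 2 months and 0.37 at 12 months between genotypes. With age in WT/WT Kl was then -0.27, Clic6 -0.0875 and Otx2 -0.38. At 2 months Clic6 was -0.26 and Otx2 -0.24, and with age in 304Q/304Q Clic6 was -0.0435. The interaction was then 0.61 for Kl and 0.0441 for Clic6. With 1 library left out, Ttr at 12 months ran from -1.001 to 0.72, Kl there from -0.76 to 0.72, Clic6 there from -0.66 to 0.0188, Clic6 at 2 months from -0.00012 to 0.67, Otx2 at 2 months from -0.11 to 0.073, Otx2 with age in WT/WT from -0.18 to 0.17, and with age in 304Q/304Q Ttr from -0.0077 to 5.32 and Clic6 from -0.17 to 0.67. Between genotypes the values without leaving out a library were 0.51 for Clic6 and 0.0044 for Otx2 at 2 months and -0.34 for Clic6 at 12 months, with age in 304Q/304Q Clic6 was 0.15, and its interaction was -0.85.

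The median r of Ttr with the members was 0.938 in the 6 mice and 0.921 to 0.965 with 1 left out. In the 14 mice it was -0.02, and 0.0721 with a prior count of 0.5, 0.0347 after subtraction of group means and -0.0884 to 0.0823 with 1 mouse left out. Members with under 40 counts in most libraries are limited by counting error, and 5 mice a group leave wide errors for Ttr.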
